A study of Mus musculus with 7 samples.

Results

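Resident monocyte-derived Langerhans cells (resident mLC) are donor bone marrow-derived cells of mouse epidermis that the deposited annotation places in the cluster Res_mLC. That annotation chose them, and it was made by clustering the cells on the same transcripts described here, so differences between clusters are given as descriptions without tests. The cluster held 1651 of the 11899 donor cells and of the 18106 cells in the 7 libraries of the series. In the 4 donor libraries, female CD45.1 C57BL/6 bone marrow had been transplanted into irradiated male CD45.2 C57BL/6 mice, and CD11b+MHCII+ donor cells were sorted from epidermis 3 weeks later for 10x single-cell RNA sequencing. The labels give 3 of these libraries bone marrow transplant (BMT) alone and 1 library BMT plus T cells, which the methods describe as CD4 T cells and male antigen-specific CD8 Matahari T cells. The design text of the series gives T cells to the mice without separating libraries, so the groups are named here as labelled. No label gives age or the number of mice behind a library. The study describes the donor cells as pools of several mice from 2 rounds of sorting and sequencing, so a library is a pool and not 1 animal. The remaining libraries held CD45neg keratinocytes, 1 under each label, and host CD11b+MHCII+ cells under BMT. Host and donor carry the same C57BL/6 background, and the CD45 allele marks the origin of each cell.

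Langerhans cells are the mononuclear phagocytes of the outer epidermis. They anchor among keratinocytes through adhesion molecules, take up antigen with the C-type lectin langerin, and can leave for the lymph node to present it to T cells. Their network is normally seeded before birth and renews itself locally, but after the network is destroyed blood monocytes can enter the epidermis and take on a Langerhans cell phenotype.

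The upstream regions of Cd207, Epcam and H2-M5 are shown because these genes, which stood above every other donor cluster in every library, lie beside results on Zeb2, a repressor of the Zeb family that binds E-box sequences. Each stretch is the 250 bases before the annotated start, from RefSeq on GRCm38.p6, with the letters CACCTG, or their reverse complement, in capitals. Cd207 lies on the minus strand at chr6:83677858-83678107 and held no match, Epcam on the plus strand at chr17:87635729-87635978 held matches starting at -187 and -19, and H2-M5 on the minus strand at chr17:36989534-36989783 held 1 at -129, counted from the start site.
Cd207: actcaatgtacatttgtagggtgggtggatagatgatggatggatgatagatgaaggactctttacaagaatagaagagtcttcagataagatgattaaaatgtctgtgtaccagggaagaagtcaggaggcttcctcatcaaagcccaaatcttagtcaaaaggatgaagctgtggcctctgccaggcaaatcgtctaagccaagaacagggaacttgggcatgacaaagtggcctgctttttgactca
Epcam: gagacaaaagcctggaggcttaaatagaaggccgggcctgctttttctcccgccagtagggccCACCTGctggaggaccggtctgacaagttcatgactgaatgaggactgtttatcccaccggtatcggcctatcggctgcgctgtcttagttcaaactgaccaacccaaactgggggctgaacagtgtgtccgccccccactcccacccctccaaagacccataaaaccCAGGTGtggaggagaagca
H2-M5: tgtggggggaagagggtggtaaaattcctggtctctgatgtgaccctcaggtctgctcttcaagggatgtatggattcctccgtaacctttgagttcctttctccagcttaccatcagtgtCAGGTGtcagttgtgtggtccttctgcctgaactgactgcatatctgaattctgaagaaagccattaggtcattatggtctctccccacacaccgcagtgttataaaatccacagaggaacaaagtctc
Of 27025 mouse promoters of this length, 17.1% held CACCTG on either strand. Among the 10 genes above every cluster with the largest difference from the mean of the other clusters, 8 matched the promoter table. Of these 8, 3 held CACCTG (H2-M5, Hpgds and Epcam). The letters TGTGGT, recognised by Runx factors and also searched on both strands, were in 14.2% of all promoters and in 2 of these 8, H2-M5 and Hpgds. A match describes these letters and is no evidence of binding.

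Levels are given as CP10K, the mean number of unique transcripts (UMIs) of a gene per 10000 UMIs of a cell. Cd207 encodes langerin, the endocytic lectin that forms Birbeck granules. Its level in resident mLC was 1.31 in BMT replicate 1, 5.50 in replicate 2, 10.4 in replicate 3 and 9.5 in BMT + T cells. The 2 libraries with the higher levels carried different labels, and BMT replicate 1 stood below the other libraries. Means over libraries elsewhere were 2.83 in cycling mLC, 0.631 in migrating mLC, 0.516 in Mrc1+ macs and 0.0352 in monocytes. Epcam, an epithelial adhesion molecule, was at 26.0, 18.7, 22.3 and 24.1 CP10K in the same order of libraries. The libraries overlapped closely for Epcam, beside 14.9 in cycling mLC, 10.2 in the converting cells (MC) and 0.367 in monocytes.

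Mfge8, a secreted bridge between apoptotic cells and phagocytes, was at 32.6, 56.8, 52.9 and 44.4 CP10K. It was not particular to resident mLC, since migrating mLC averaged 39.3. H2-M5, a nonclassical MHC class I gene, was at 4.88, 3.56, 3.53 and 3.95 CP10K, and averaged 1.82 in cycling mLC and 0.109 or less in every other cluster. The value of BMT replicate 1 was 2.06 without its 13 cells above 20% mitochondrial UMIs. Ptgs1, the constitutive cyclooxygenase that makes the precursor of prostaglandins, was at 5.28, 7.36, 4.41 and 6.24 CP10K beside 3.54 in cycling mLC and 0.17 or less elsewhere. These 5 markers describe the cluster and are no separate check of its name, since the clusters were made from the same transcripts. By these means over cells, all but Mfge8 were above every other cluster in each library.

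**Figure D1:**
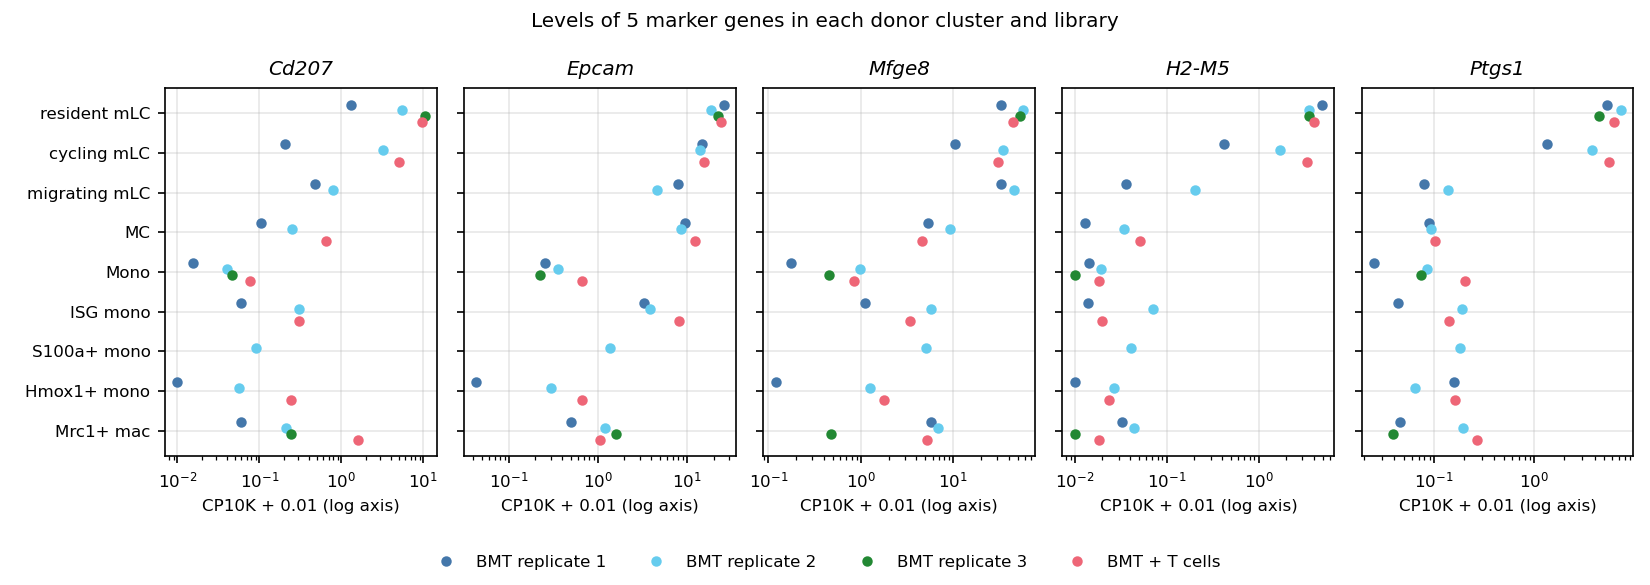
Level of each of 5 marker genes (columns; CP10K + 0.01 on a log axis) in each donor cluster (rows) and library (coloured points), for clusters with at least 20 cells in a library. Within each library resident mLC lie furthest right for Cd207, Epcam, H2-M5 and Ptgs1, cycling mLC come next by their mean over libraries (for Cd207 in BMT replicate 1 they lie at 0.194, below migrating mLC at 0.472), and for Mfge8 migrating mLC (mean 39.3) overlap them.

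Resident mLC made up 4.08% of donor cells in BMT replicate 1 (105 cells), 14.0% in replicate 2 (1175 cells), 22.6% in replicate 3 (51 cells) and 44.5% in BMT + T cells (320 cells). The BMT libraries averaged 13.6% ± 9.25 (SD, n = 3), and the single BMT + T cells library was 31.0 points above that mean and above each of them. No test was run on this difference, because an exact permutation of 1 library against 3 cannot give a p under 0.25. The part of sorting and cell loading in these shares was not tested, and fewer cells of the other clusters cannot be told apart from more resident cells. Median depth was 10082, 7343, 18027 and 12852.5 UMIs per resident cell. Median mitochondrial share was 2.17%, 2.20%, 1.34% and 1.32%, and 13, 4, 1 and 7 cells exceeded 20%. The medians of mitochondrial share, UMIs and genes per cell differed between resident mLC and other donor cells by less than the spread between libraries (0.0998 ± 0.320 points, 1454 ± 4779 UMIs and 290 ± 533 genes; SD, n = 4; exact 2-sided sign-flip p = 0.625, 0.625 and 0.5, where 0.125 is the smallest possible). Cell barcodes were shared by more than 1 donor library in 8 cases, and 3 resident cells had such a barcode.

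Resident mLC were compared with the other 8 clusters within each library, as differences in log2(CP10K + 0.1). A gene counted as higher or lower when the difference passed 1 in the same direction in every library. A cluster entered with at least 20 cells in a library, so BMT replicate 3 had monocytes and Mrc1+ macs alone for comparison. Of 7267 genes, 153 (2.11%) were higher and 243 (3.34%) lower than the mean of the other clusters, and 389 (5.35%) lay above and 213 (2.93%) below every other cluster in every library. By more than 1 log2 unit, 3 genes (0.0413%) stood above and 7 (0.0963%) below every cluster. Against single clusters, 227 genes (3.12%) were higher and 318 (4.38%) lower than in monocytes, 216 (2.97%) and 331 (4.55%) than in ISG monocytes, 518 (7.13%) and 402 (5.53%) than in Hmox1+ monocytes, 710 (9.77%) and 622 (8.56%) than in S100a+ monocytes, and 144 (1.98%) and 301 (4.14%) than in Mrc1+ macs. S100a+ monocytes had at least 20 cells in BMT replicate 2 alone. Their counts rest on that library and cannot be set against counts that needed several libraries. Across all genes the median difference from the mean of the other clusters was 0.14.

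Genes above every cluster were ranked by their difference from the mean of the other clusters. The largest differences were those of H2-M5 (4.73 ± 0.54, SD over n = 4 libraries), Ptgs1 (4.51 ± 0.46), P2rx2 (4.13 ± 0.63), Cd207 (4.04 ± 1.13) and Cacna1e (3.83 ± 0.80). The margin over the nearest cluster was smaller. In BMT + T cells H2-M5 was at 3.95 CP10K beside 3.33 in cycling mLC, and Ptgs1 at 6.24 beside 5.54. P2rx2 encodes an ATP-gated ion channel and was at 1.85, 2.22, 3.40 and 4.13 CP10K, beside 1.11 in cycling mLC and 0.0773 or less in every other cluster. Cacna1e encodes a voltage-gated calcium channel subunit and was at 2.39, 0.95, 2.12 and 1.39 CP10K. Without cells above 20% mitochondrial UMIs its level in BMT replicate 1 was 0.559, which turned the highest library into the lowest. Lpar3, Cldn1, Hpgds, Epcam and Rgs18, a regulator of G protein signalling, completed the 10 genes with differences from 3.59 to 3.8. Without cells above 20% mitochondrial UMIs, the differences of H2-M5 and Cacna1e were 4.39 and 3.31, and 9 of these 10 genes kept their place among the 10.

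Of 9 Langerhans cell surface genes compared, 5 were higher and none lower (median difference 2.30). For this and the lists below, differences are from the mean of the other clusters unless a cluster is named. Over all genes 2.11% were higher and 3.34% lower, with a median of 0.14. Besides Cd207, Mfge8 and H2-M5 these were Cd24a, a mucin-like adhesion molecule (3.15, 4.36, 4.62 and 5.01 CP10K; difference 2.55 ± 0.68), and Ly75, the endocytic receptor DEC-205 (1.49, 1.97, 0.729 and 1.31; 2.30 ± 0.50). Ly75 averaged 3.56 in migrating mLC, above its level in resident mLC. Sirpa, Itgax, Adgre1 and Ptprc did not pass, with differences of -0.73, -0.18, -0.65 and -0.36.

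Among 9 genes of epithelial adhesion 3 were higher and none lower, with a median of 1.13. The tight junction gene Cldn1 was at 4.15, 8.07, 4.23 and 4.11 CP10K (difference 3.75 ± 0.92), and BMT replicate 2 was the highest library. Jup, encoding junction plakoglobin, was at 0.395, 0.565, 0.679 and 0.468 CP10K (1.32 ± 0.34), and migrating mLC held as much (0.522). Cdh1, encoding E-cadherin, was at 7.79, 13.5, 4.36 and 4.96 CP10K and did not pass, because it differed by only 0.14 in BMT replicate 3. Mrc1+ macs and MC also carried Cdh1, at 5.31 and 5.30 CP10K. Ctnnd1, encoding the catenin that stabilises cadherins, differed by 1.01 ± 0.17 and lay above every cluster.

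Prostaglandins and leukotrienes are made from arachidonic acid by cyclooxygenase and 5-lipoxygenase. Of 18 genes of this list, 5 were higher in resident mLC and 3 lower. Against cycling mLC alone none was higher and 1 was lower (median 0.16), so the list did not set resident mLC apart from them. On the prostaglandin D2 branch, Hpgds, the hematopoietic prostaglandin D synthase that acts after Ptgs1, was at 11.4, 9.43, 10.4 and 10.8 CP10K. The libraries lay close together, and the difference was 3.74 ± 0.56. Cycling mLC averaged 4.60 CP10K of Hpgds, and every other cluster 1.36 or less. On the leukotriene branch, Alox5 (5-lipoxygenase) was at 2.67, 4.14, 3.74 and 4.24 CP10K with a difference of 3.17 ± 0.73. Ltc4s, which makes leukotriene C4, was at 4.4, 4.34, 6.92 and 8.33 CP10K, with a difference of 3.55 ± 0.45. Alox5ap, which presents arachidonic acid to 5-lipoxygenase, also lay above every cluster. Its difference from the mean of the other clusters was smaller (0.84 ± 0.15), and monocytes held it at 11.9 CP10K.

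The lysophosphatidic acid receptor gene Lpar3 was at 2.91, 3.76, 3.92 and 3.86 CP10K, beside 1.74 in cycling mLC and 0.464 or less elsewhere. Hpgd, which inactivates prostaglandins, was at 0.107, 0.201, 1.48 and 0.795 CP10K. Its level was low in BMT replicates 1 and 2, and its difference of 1.57 ± 0.53 missed the threshold in BMT replicate 1 (0.94). The genes that were lower were Pla2g7, the platelet-activating factor hydrolase (0.104, 0.243, 0.115 and 0.0919 CP10K, beside 3.94 in monocytes; -3.68 ± 0.44), Tbxas1, the thromboxane synthase (-1.77 ± 0.71), and Cyp4f18 (-1.86 ± 0.59). Ptgs2, the inducible cyclooxygenase, was at 0.0872 CP10K or less and differed by -1.38.

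**Figure D2:**
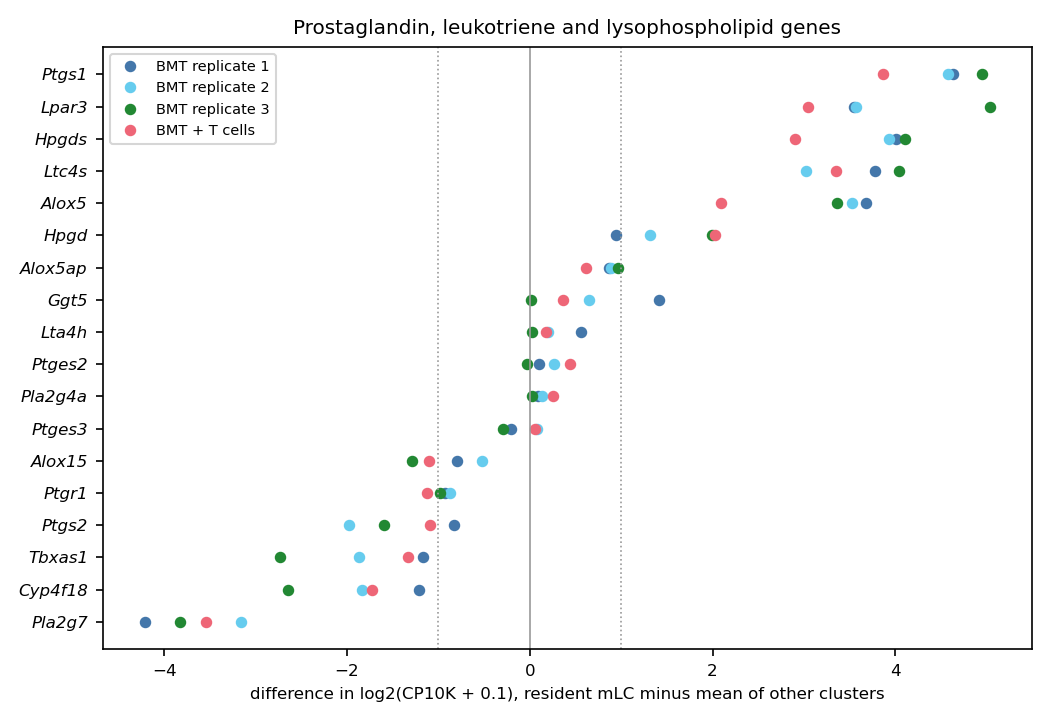
Difference in log2(CP10K + 0.1) between resident mLC and the mean of the other clusters (horizontal) for 18 lipid mediator genes (vertical), 1 point per library; dotted lines mark differences of 1. Ptgs1, Lpar3, Hpgds, Ltc4s and Alox5 lie beyond 1 on the right in all 4 libraries, and Pla2g7, Cyp4f18 and Tbxas1 beyond 1 on the left.

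Among 19 myeloid transcription factors 2 were higher and 1 lower (median -0.52). Ahr, the aryl hydrocarbon receptor, was at 2.82, 2.28, 1.52 and 2.29 CP10K (1.99 ± 0.30), with cycling mLC at 1.66 and migrating mLC at 1.02. Of the other Ahr pathway genes compared, none passed, and Tiparp, a target of the receptor, differed by -0.92. Zeb1 was at 0.430, 0.660, 0.287 and 0.461 CP10K and differed by 1.57 ± 0.11, nearly equal between libraries. Its paralog Zeb2 was at 0.471, 0.357, 0.0331 and 0.0910 CP10K, beside 1.94 in monocytes, 2.27 in Mrc1+ macs and 3.57 in Hmox1+ monocytes. The Zeb2 difference was -2.37 ± 1.44 and missed the threshold in BMT replicate 1 (-0.91). Zeb2 was also low in cycling mLC (0.323) and migrating mLC (0.409).

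Klf4 was the factor that passed as lower (-1.76 ± 0.70), at 0.266 to 0.397 CP10K beside 2.26 in monocytes. Runx3, needed for Langerhans cell development, was at 10.8, 8.93, 11 and 9.41 CP10K and differed by 1.33 ± 0.47, but reached only 0.85 in BMT replicate 2, and cycling mLC held 12. Id2, also needed for Langerhans cells, differed by 0.72 ± 0.22 and did not pass, with 11 CP10K in Hmox1+ monocytes. No gene of the TGF-beta pathway passed among 12, and the receptor gene Tgfbr1 differed by -0.63 and Tgfbr2 by -0.06. No growth factor receptor gene passed among 11: Csf1r, the receptor for IL-34 and CSF-1, was at 3.27, 5.19, 5.39 and 4.09 CP10K beside 6.29 in monocytes, a difference of -0.19 ± 0.31. No Notch pathway gene passed among 10 (median -0.51).

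MHC class II genes had a median difference of 0.57, with 2 higher and 2 lower of 13. The genes that were higher encode chains of the peptide-loading chaperone H2-DM: H2-DMa (19.5, 20.8, 17.4 and 19.3 CP10K; 1.20 ± 0.15) and H2-DMb2 (3.54, 3.59, 4.97 and 4.51; 2.35 ± 0.58). H2-Oa, a chain of the H2-O modulator of H2-DM, differed by 1.34 ± 0.42 and lay above every cluster, but reached 0.96 in BMT + T cells. The class II chain H2-Ab1 differed by 0.64 and the invariant chain Cd74, at 302, 257, 452 and 465 CP10K, by 0.81. The genes that were lower encode lysosomal proteases, Lgmn (-2.46 ± 0.71) and Ctsl (-2.53 ± 0.37). Both lay below every cluster, Ctsl at 0.0777 to 0.398 CP10K beside 32.0 in Hmox1+ monocytes. Of 9 costimulatory and checkpoint genes none was higher and 2 were lower, among them Cd274, encoding PD-L1 (-3.04 ± 1.04), while Cd86 differed by 0.43.

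Most of the monocyte and macrophage genes compared were lower in resident mLC than in the mean of the other clusters. Of 17 classical monocyte genes 11 were lower and none higher (median -1.70). Lyz2, encoding lysozyme, was at 1.08, 1.17, 1.76 and 1.93 CP10K beside 115 in monocytes (-3.85 ± 0.64). Plac8 (-3.60 ± 1.35) and Fn1, encoding fibronectin (-3.47 ± 1.12), were likewise lower in each library. Ly6c2, which marks inflammatory monocytes, was at 0.345, 0.219, 0.0585 and 0.0448 CP10K beside 9.92 in monocytes (-3.11 ± 1.02). S100a6 did not pass (-0.17) and stayed at 60.3 to 92.6 CP10K. Low levels of this list were shared with the clusters most like resident mLC. Of its 17 genes 15 were lower than in monocytes, but 4 than in MC, 3 than in migrating mLC and 1 than in cycling mLC.

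Of 15 tissue macrophage genes 12 were lower and none higher (median -2.57). Mrc1, the mannose receptor, was at 0.127, 0.818, 0.128 and 0.173 CP10K beside 5.65 in Mrc1+ macs (-3.01 ± 1.36). Trem2 was at 0.086 to 0.478 CP10K beside 5.06 (-2.57 ± 0.49). The complement gene C1qa was retained at 6.52, 7.30, 2.59 and 6.72 CP10K and missed the threshold in 2 libraries (-1.57 ± 0.96), with 38.5 in Mrc1+ macs. Against migrating mLC this list was not lower in the same way, with 1 gene higher and 1 lower. Against cycling mLC 1 gene was lower and none higher (median -1.03), whereas against MC 9 were lower.

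Receptors that sense or take up targets were lower in part. Of 12 C-type lectin genes besides Cd207, 5 were lower and none higher. Clec4e, the receptor Mincle, was at 0.0575 CP10K or less (-3.10 ± 0.40), and Clec7a, the beta-glucan receptor Dectin-1, was at 2.81, 7.83, 0.599 and 0.936 CP10K beside 20.2 or more in every cluster but cycling mLC (-3.20 ± 1.07). Of 11 Fc and phagocytic receptor genes 7 were lower and none higher, including Fcgr1 (-3.05 ± 0.61) and Fcgr3 (-2.46 ± 0.52). Of 7 chemokine receptor genes 2 were lower, Ccr2, which takes monocytes to inflamed tissue (-2.35 ± 1.06), and Cxcr4 (-2.24 ± 0.11). Against cycling mLC alone no C-type lectin and no Fc or phagocytic receptor gene passed (medians -0.73 and -0.72), and 1 chemokine receptor gene was lower.

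Cytokine genes were mostly lower, 8 of 13, with 1 higher. Il1b was at 0.156, 1.06, 0.0358 and 0.285 CP10K, beside 42.4 in S100a+ monocytes and 11.5 in monocytes (-4.15 ± 1.33). Its antagonist gene Il1rn was lower with it (-3.41 ± 0.74). The gene that was higher was Il18, an epithelial and myeloid cytokine of the IL-1 family, at 0.595, 0.670, 1.23 and 1.21 CP10K (1.51 ± 0.09), close between libraries as a difference but higher as a level in BMT replicate 3 and BMT + T cells. Tnf differed by 0.33. Against cycling mLC alone none of the 13 cytokine genes was lower and 1 was higher (median -0.92). The chemokine gene Ccl9 (-3.69 ± 0.49), the macrophage chemokine gene Ccl24 (-4.11 ± 2.39) and the proteoglycan gene Srgn (-4.11 ± 0.81) were among the 10 genes with the largest lower differences, along with Fabp5, AA467197, Ccl17 and F10.

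In lipid handling 7 of 18 genes were lower, with the scavenger receptor Cd36 (-2.76 ± 0.10), the fatty acid carrier Fabp5 (-3.71 ± 0.48) and the lipoprotein receptor Lrp1 (-3.01 ± 0.86) below every cluster. Srebf2, the regulator of cholesterol synthesis, differed by 1.27 ± 0.45 and missed the threshold in BMT replicate 1 (0.80). Of 23 fatty acid oxidation genes 1 was higher and none lower (median 0.52): Acsl5, an acyl-CoA synthetase, at 0.692, 1.03, 1.10 and 1.11 CP10K (1.56 ± 0.14). Of 15 glycolysis genes 1 was lower, Hk3 (-1.95 ± 0.58), with a median of -0.48. A count of 1 gene in lists of this size lies near the shares over all genes (2.11% higher and 3.34% lower). Interferon-gamma genes had 3 lower of 18, antiviral interferon-stimulated genes 3 lower of 21 and immediate early genes 2 lower of 13, none of them higher.

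**Figure D3:**
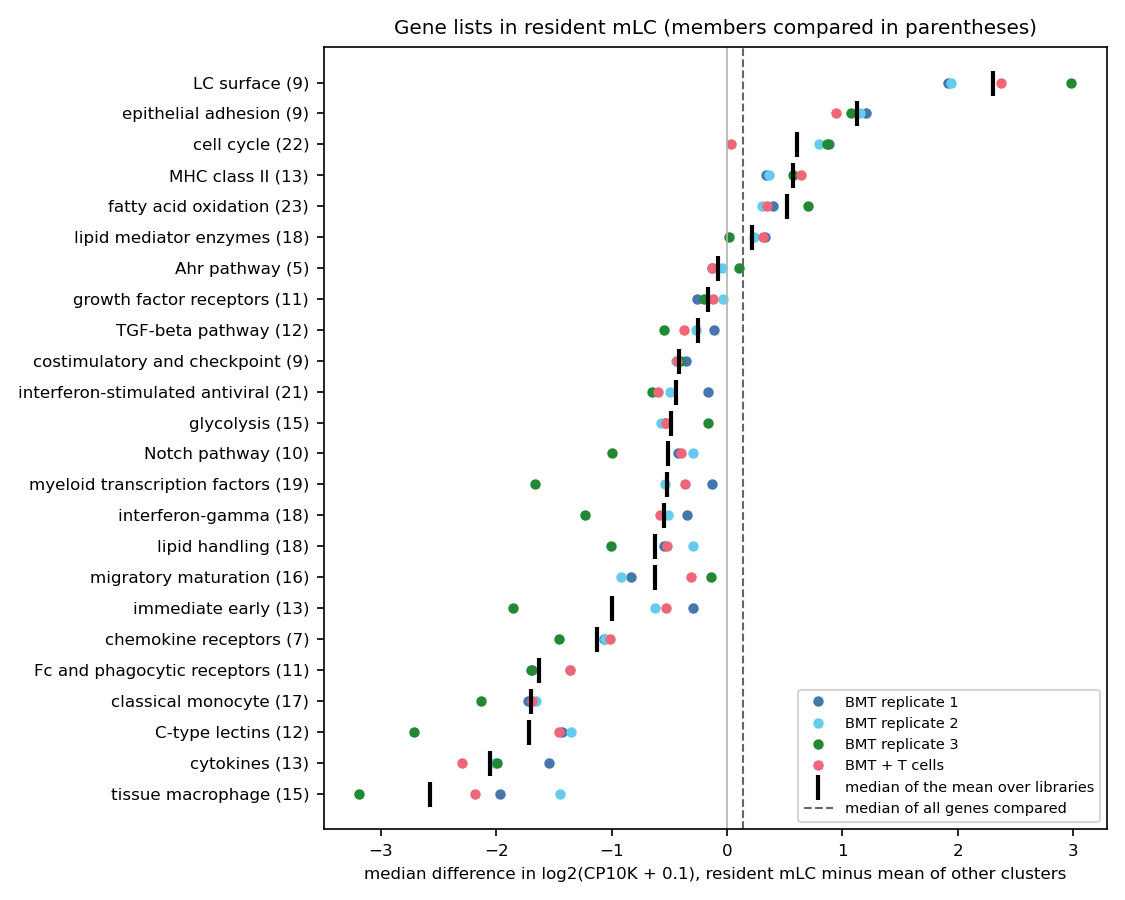
Median difference in log2(CP10K + 0.1) of each of 24 gene lists (vertical; members compared in parentheses) between resident mLC and the mean of the other clusters; points are libraries, bars the median of the mean over libraries, and the dashed line the median of all genes (0.14). LC surface (2.30) and epithelial adhesion (1.13) lie furthest right, tissue macrophage (-2.57) and cytokines (-2.05) furthest left.

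The cluster with the fewest differing genes was cycling mLC, from which 8 genes (0.11%) were higher in resident mLC and 200 (2.75%) lower in the 3 libraries with enough cells. The lower genes were led by Rrm2 (-4.05 ± 0.52) and Top2a (-3.91 ± 0.37; 0.753, 0.798, 0.282 and 0.485 CP10K in resident mLC beside 11.4), with Nusap1, Kif11 and Esco2. All have roles in DNA synthesis, chromosome cohesion or mitosis, and 17 of 22 cell cycle genes compared were lower. The higher genes were led by Gabbr1, a GABA receptor subunit (2.21 ± 1.22), Cacna1e, Tcea3, Tcp11l2 and P2rx2. None of the Langerhans cell surface genes passed between them (median 0.66). Against the mean of all other clusters no cell cycle gene passed (median 0.61), but that mean includes cycling mLC where they had enough cells. Of the 22 genes, 14 were higher than in migrating mLC, 12 than in Hmox1+ monocytes and 14 than in S100a+ monocytes (BMT replicate 2 alone). Only 2 were higher than in MC, 1 than in monocytes, and 0 than in ISG monocytes or Mrc1+ macs. Deposited phase calls put 68.6%, 65.0%, 70.6% and 72.5% of resident cells in G1.

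From MC, 163 genes (2.24%) were higher and 220 (3.03%) lower. MC, described as converting cells, carried Epcam at 10.2 CP10K but H2-M5 and Ptgs1 at 0.0226 and 0.0848, and these genes led the difference at 5.11 ± 0.42 and 5.10 ± 0.23 (SD, n = 3). The lower genes were led by the chemokine gene Ccl17, at 0.542, 2.16, 0 and 0.247 CP10K beside 63.8 in MC (-6.25 ± 0.95), and AA467197, Ccl9, F10 and Srgn. From migrating mLC, with 2 libraries to compare, 429 genes (5.9%) were higher and 302 (4.16%) lower. The lower genes were led by Ccl22 (-7.37 ± 0.88), the lymph node homing receptor Ccr7 (-6.34 ± 0.16), Ccl17, Fscn1 and Nr4a3, and 14 of 16 genes of migratory maturation were lower. Ccr7 was at 0.0229 CP10K in BMT replicate 2 and at 0 in the other libraries of resident mLC. Ptgs1 (5.02 ± 0.03) and H2-M5 (4.48 ± 1.18) led the higher genes again, and Hpgds differed by 3.75 ± 0.12, whereas Mfge8 differed by 0.15.

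Detection of the markers in single resident cells was described at equal depth. Each cell was thinned to 2000 UMIs, which kept 86, 1127, 47 and 275 cells and left out 19, 48, 4 and 45. At this depth Cd207 was detected in 24.4% of cells in BMT replicate 1 (exact 95% interval 15.8 to 34.9), 49.6% in replicate 2, 63.8% in replicate 3 and 61.5% in BMT + T cells. Without thinning the shares were 40.0%, 67.6%, 78.4% and 75%, with median depths of 10082, 7343, 18027 and 12852.5 UMIs. In monocytes, which should lack the gene, thinned shares were 0%, 0.19%, 1.27% and 3.51%. For BMT replicate 1 the 240 monocytes without a UMI allow a share of cells with a UMI at this depth of up to 1.53% by the exact interval, which sets no limit on the cells that express the gene. Epcam was detected in 95.3%, 94.8%, 100% and 98.2% of resident cells and in 8.77% or fewer monocytes. These intervals cover counting error only.

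Both Cd207 and Epcam were found in 23.3%, 47.2%, 63.8% and 59.6% of resident cells, and Epcam without Cd207 in 72.1%, 47.6%, 36.2% and 38.5%. A cell without a UMI at this depth may still express the gene, so these shares do not define a subset without Cd207. Cd207 averaged 0.337, 1.08, 1.89 and 2.10 UMIs per thinned cell. Its variance was 1.37, 2.60, 3.29 and 3.67 times its mean, where counting alone gives about 1. At least 3 of the 5 markers were found in 54.7%, 77.7%, 74.5% and 78.5%. BMT replicate 1 was again the lowest library. H2-M5 was detected in 15.1%, 36.6%, 34.0% and 17.8%, and Ptgs1 in 45.3%, 66.1%, 57.4% and 58.9%. Zeb2 was detected in 2.13% to 6.65% of resident cells beside 25% to 35.1% of monocytes, and Lyz2 in 10.6% to 19.3% beside 88.8% to 100%. Mki67 was detected in 11.6%, 12.4%, 2.13% and 11.3% of resident cells, beside 65.2% to 66.8% of cycling mLC.

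**Figure D4:**
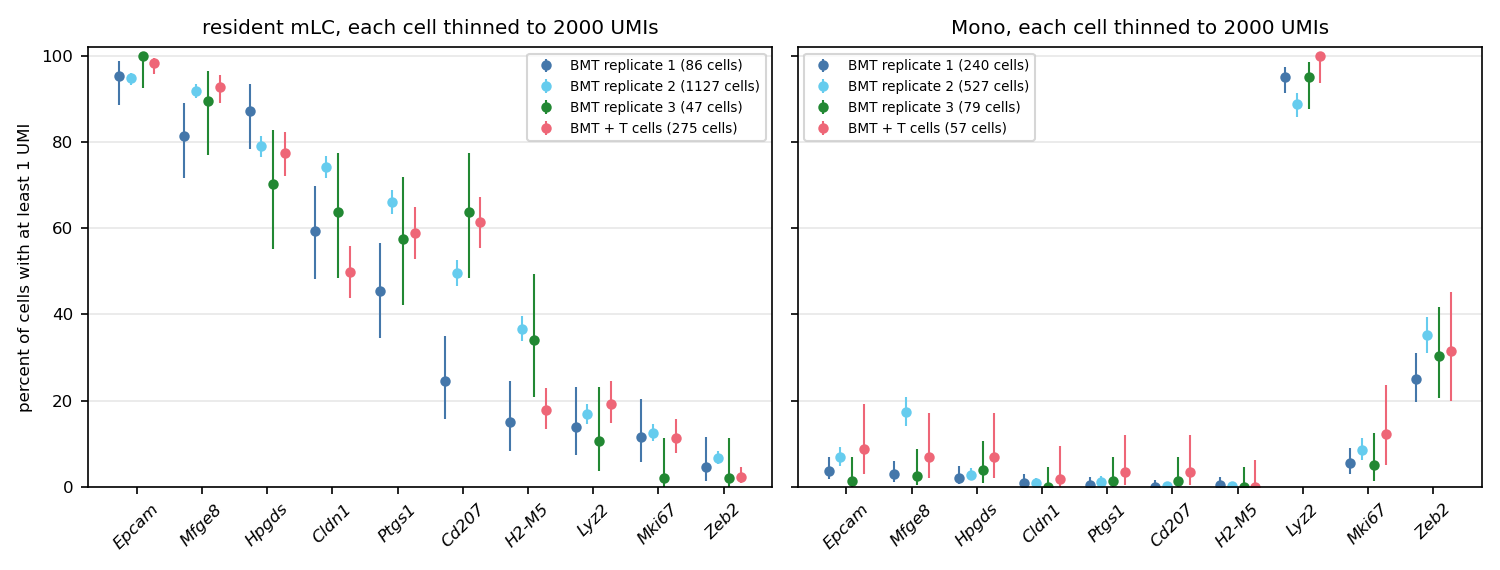
Percent of cells with at least 1 UMI of each gene after thinning each cell to 2000 UMIs, in resident mLC (left) and monocytes (right); points are libraries and bars exact 95% binomial intervals over cells. Epcam is near 100% in each library of resident mLC, Cd207 runs from 24.4% to 63.8%, and Lyz2 changes places with the markers in monocytes.

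The genes whose counts varied most over resident cells for their mean, ranked over 6425 genes, were Crip1, Cst3, Mfge8, Actb, Cd74, Tmsb4x, C1qa, Lgals3, Vim and Fth1. Crip1 had a variance of 7.56, 9.91, 12.1 and 10.2 times its mean, and C1qa of 5.93, 4.19, 7 and 3.68 times, where counting alone gives about 1. The deposited latent time orders cells by RNA velocity on a scale from 0 to 1. Its median in resident mLC was 0.518, 0.517, 0.638 and 0.641. In each library this was above the median over all other donor cells as 1 group (mean difference 0.311 ± 0.0407; SD, n = 4). Some single clusters lay higher. S100a+ monocytes did in BMT replicate 1 (0.722, 11 cells) and BMT + T cells (0.932, 9 cells), but not in BMT replicate 2 (0.328). Cycling mLC did in BMT replicate 3 (0.661, 6 cells) and BMT + T cells (0.660, 34 cells), but not in BMT replicates 1 and 2 (0.415 and 0.458). Latent time was computed from the transcripts that also made the clusters, so this is a description. Across cells within a library its Spearman coefficient with thinned Ptgs1 was 0.25, 0.47, 0.36 and 0.33, with Cd207 0.23, 0.37, 0.33 and 0.38, and with H2-M5 0.28, 0.39, 0.63 and 0.33 (86, 1127, 47 and 275 cells). These genes were also related to the depth of the cell, H2-M5 at -0.21, -0.21, -0.39 and -0.36, Ptgs1 at -0.15, -0.20, -0.05 and -0.24, and Cd207 at -0.12, -0.09, -0.01 and -0.12. Epcam showed no such order (-0.31, 0.00, -0.04 and 0.06).

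Comparison of the labels asked whether resident mLC of the BMT + T cells library differed from those of the 3 BMT libraries. The fit takes the spread of the BMT libraries for that of the single one. None of 7343 genes was called (0%) by limma at an adjusted p under 0.05 with a change over 1 log2 unit, and 33 had an unadjusted p under 0.05. Voom on the UMI sums also called 0, with 133 at an unadjusted p under 0.05. The 5 smallest p-values belonged to Pf4, Rbm24, Zfhx3, Itgae and Mllt6. Pf4, encoding platelet factor 4, was at 0.017, 0.139 and 0.270 CP10K in BMT and 1.15 in BMT + T cells (log2 fold change 2.52, SE 0.61, limma adjusted p = 1.00). Itgae, the integrin chain that binds E-cadherin, was at 0.394, 0.299 and 0.241 in BMT and 0.0552 in BMT + T cells (-1.39, SE 0.41, limma adjusted p = 1.00). In each of these genes the BMT + T cells library lay outside the range of the BMT libraries. That follows largely from choosing them by p in this fit and is no support for them. Over the settings tried, the log2 fold change of Pf4 ran from 0.101 to 3.48. That of Zfhx3 ran from -1.36 to 0.378, while Rbm24, Itgae and Mllt6 kept their sign.

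Of the markers, Cd207 differed by 1.14 (SE 0.96), Epcam by 0.12 (SE 0.31), Mfge8 by -0.05 (SE 0.37), H2-M5 by 0.00 (SE 0.31) and Ptgs1 by 0.16 (SE 0.35) between the labels, with limma adjusted p = 1.00 for each. BMT + T cells lay inside the BMT range for Cd207. Over the settings tried, the H2-M5 difference between the labels ran from -0.753 to 0.156. The library names fall in pairs, BMT replicates 1 and 2 in one form and BMT replicate 3 and BMT + T cells in another, which the keratinocyte libraries share. The labels do not say whether the pairs are the 2 rounds of sorting and sequencing. Within the second pair Cd207 differed by -0.12, against 1.14 over all libraries.

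Between the pairs, 31 genes (0.422%) were over 1 log2 unit higher in both libraries of the first pair and 21 (0.286%) in both of the second. The first included the interferon-gamma-induced GTPase Iigp1 (0.748, 0.780, 0.0636 and 0.0803 CP10K), Clec7a, Chil3 and Zbp1, and the second Hpgd and ribosomal protein genes such as Rpl3 (2.37, 2.14, 13.6 and 8.13). These genes were named after their values were seen, and ribosomal protein genes have many near-identical copies, so their counts are uncertain. The pair cannot be told apart from depth, which was also higher in the second pair of resident mLC.

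Transcripts of other cell types were few. The 12 keratinocyte markers measured summed to 0.816 to 2.03 CP10K in resident mLC, to 0.282 to 2.98 in the other donor clusters and to 598 or more in the keratinocyte libraries. Trp63 was at 0 in 3 of the 4 libraries. Dmkn was the keratinocyte marker with a difference over 1 (1.56), at 0.307 to 0.632 CP10K. Over all keratinocytes of a library Epcam was at 1.10 CP10K or less. Follicular keratinocytes held more, 4.42 under BMT and 4.25 under BMT + T cells, and no keratinocyte cluster held Cd207 above 0.00366. All of these were below resident mLC.

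The 11 T cell markers summed to 0.247 to 0.560 CP10K in resident mLC and to 0.0414 to 0.507 in the other donor clusters. The sum was highest in resident mLC in each library but BMT replicate 2, where cycling mLC held 0.507. Most of it was Cd2, an adhesion molecule, at 0.203, 0.329, 0.531 and 0.291 CP10K (difference 1.17 ± 0.18), while Cd3d and Trac were at 0.0161 or less. The 3 B or NK cell markers to 0.0855 or less, the 4 fibroblast markers to 0.0173 or less, the 3 endothelial markers to 0.190 or less, the 5 melanocyte markers to 0.221 or less and the 2 mast cell markers to 0.319 or less. The 9 neutrophil markers summed to 2.15 to 3.75, and up to 570 in the other clusters. The 8 conventional dendritic cell markers summed to 1.47 to 2.43, most of it from Sept3, and to 0.109 to 2.94 in the other donor clusters. Resident mLC held the highest sum in BMT replicate 1. They lay below migrating mLC in replicate 2, Mrc1+ macs in replicate 3 and monocytes in BMT + T cells. Clec9a was at 0 in 3 libraries of resident mLC.

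Host CD11b+MHCII+ cells were set beside resident mLC as the epidermal population of the recipient. Host clusters 1 to 3 held 607 cells in 1 library, in a table normalised apart from the donor table, so values are set side by side without a test, as UMIs per 10000 UMIs with the cells of a group together. Their median depth was 3822 UMIs, and their median mitochondrial shares were 15.6%, 6.09% and 16.9%, above those of resident mLC. Cd207 was at 1.72, 20.2 and 2.75 in host clusters 1, 2 and 3, beside 1.25, 5.24, 10.6 and 9.41 in resident mLC. Epcam was at 0.952, 10.8 and 1.70, beside 32.2, 19.4, 23.2 and 25.8. Host clusters 1 and 3 were thus low in both genes, and every library of resident mLC was above each of these host clusters for Epcam.

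Of the other genes that marked resident mLC, some were higher and some lower in the host. Ptgs1 was at 8.86, 4.78 and 8.58 in host clusters 1 to 3 beside 4.03, 6.69, 4.26 and 4.97 in resident mLC. Hpgds was at 26.2, 14.1 and 25.05 beside 9.10, 8.93, 8.39 and 9.27, and Cacna1e at 24.5, 6.16 and 19.7 beside 0.585, 0.706, 0.404 and 0.436. For Hpgds and Cacna1e each of these host clusters was above every library of resident mLC. Cd24a was lower in the host, at 0.546, 2.65 and 0.937 beside 3.45, 4.10, 5.01 and 5.27, and so was Rgs18, at 1.01, 2.36 and 1.10 beside 3.59, 3.18, 3.16 and 3.22. C1qa was lower in the host as well, at 0.0793, 2.10 and 0.203 in the host and 7.64, 8.01, 3.86 and 8.03 in resident mLC, as did Lyz2, at 0.165 or less in the host and 1.04, 1.34, 3.18 and 2.60 in resident mLC. The part of depth and mitochondrial share in these differences was not tested.

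**Figure D5:**
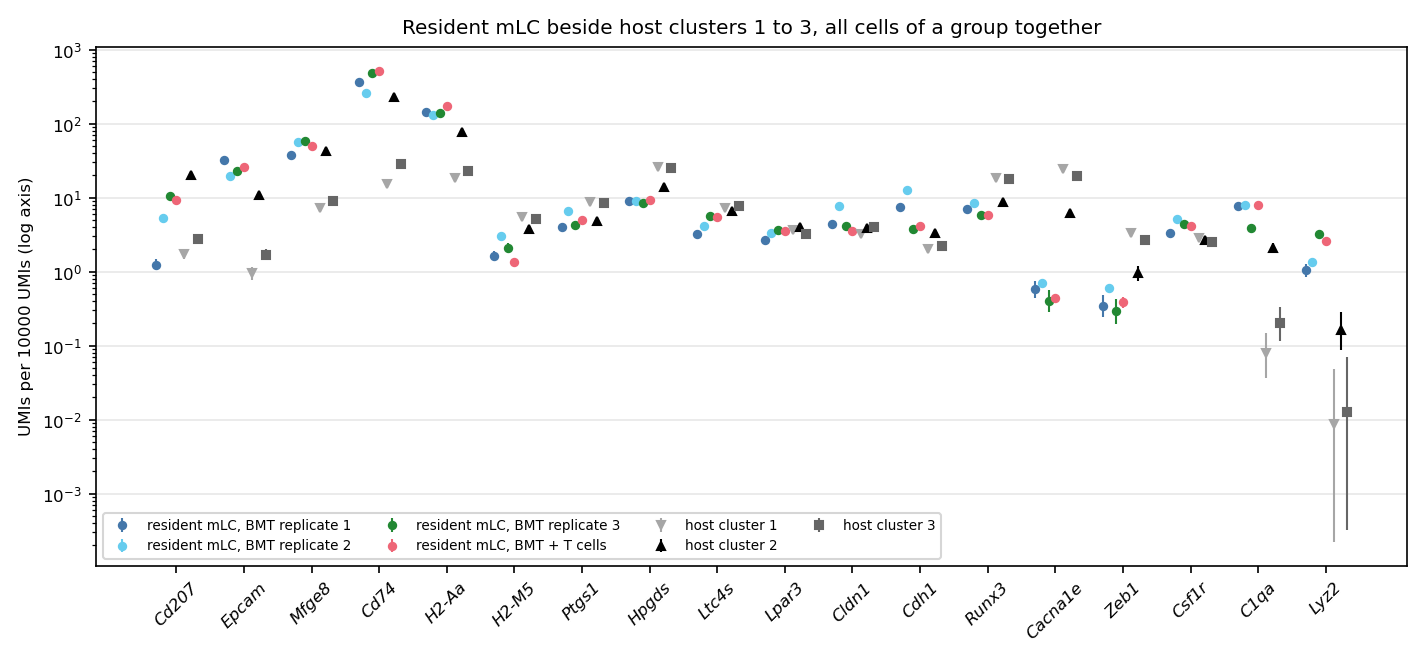
UMIs per 10000 UMIs (log axis) of 18 genes in resident mLC of each donor library (coloured points) and in host clusters 1 to 3 (grey and black symbols), with exact 95% Poisson intervals for counting error. Hpgds and Cacna1e lie higher in the host clusters, Epcam, C1qa and Lyz2 higher in resident mLC, and host cluster 2 (20.2 for Cd207) is nearest to resident mLC for Mfge8 and Cd74.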

How the data were processed

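Epidermal CD11b+MHCII+ donor cells of 4 libraries, CD45neg cells of 2 and host cells of 1 were profiled with 10x chemistry. Per the labels and the submitters' processing notes, reads were processed with kallisto, bustools and Seurat on GRCm38, with versions not given in the sources used here; the methods describe removal of doublets with DoubletFinder and of cells under 500 genes or over 20% mitochondrial reads. The authors deposited expression as the natural log of 1 plus UMIs per 10000 UMIs of a cell, in 1 table for donor, keratinocyte and host cells each. They also deposited per cell the percent of mitochondrial UMIs, the latent time as a fraction from 0 to 1, and cell cycle scores with phase calls. A step of 1 UMI gave whole counts for 100% of values (tolerance 0.001), so depth per cell was recovered. Gapdh, a gene with near-identical copies that every cell uses, lay at only 0.156 to 0.341 CP10K in resident mLC, so levels of such genes are uncertain.

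Means of CP10K per cluster and library were compared as log2(CP10K + 0.1) over genes averaging at least 0.1 CP10K. The labels were compared with limma 3.58.1 (R 4.3.3, trend and robust), with Benjamini-Hochberg adjustment, and not with a count model, because the deposited unit is a log. Residual spread came from the 3 BMT libraries alone. The study describes pooled mice, and nothing in the labels says that libraries came from separate mice, so p-values measure the spread between these libraries. Cells were thinned to 2000 UMIs for shares, with exact Clopper-Pearson intervals; sign-flip tests were 2-sided. Scripts were tested on simulated data. The members and the gene lists were chosen with earlier results of these data known.

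The genes named were the 5 markers, up to 8 members of each of 24 lists, the 10 genes above every cluster with the largest difference from the mean of the others, the 10 with the largest difference each way from that mean, 5 each way against cycling mLC, MC and migrating mLC, the 5 with the smallest label p, and the 10 most variable genes. Pseudocounts, filters, cell minimums, the deposited log, thinning, voom and each library left out in turn were tried as alternatives. Leaving out libraries for the detection shares, removing cells above 20% mitochondrial UMIs, and the count of genes that split pairs of libraries were chosen after seeing the data.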

Additional observations from a re-analysis of the deposited data

How the results depend on the processing

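With a pseudocount of 0.01 CP10K, 259 genes were higher and 366 lower than the mean of the other clusters, with 1 CP10K 24 and 54, and with the mean of the deposited log values 16 and 29. With genes averaging at least 0.5 CP10K, 64 were higher than the mean and 199 lay above every cluster. With at least 50 cells per cluster, 831 genes lay above and 388 below every cluster, since fewer clusters were compared. Leaving out each library gave 170 to 188 higher, 269 to 279 lower, 452 to 725 above and 234 to 343 below every cluster, the highest of each without BMT + T cells. Without cells above 20% mitochondrial UMIs, 152 and 241 genes were higher and lower (141 and 230 shared with the counts over all cells).

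The epithelial adhesion median was 1.54, 0.39, 1.44 and 0.30 with a pseudocount of 0.01, of 1, the 0.5 CP10K filter and the deposited log, and 1.07 to 1.30 with a library left out. The classical monocyte median was -3.23, -0.70, -2.35 and -0.34 in the same order and -2.32 with 50 cells. Both kept their sign. Averaged over libraries, Cd207 was detected in 49.8% of cells, and in 29.3% when 2 UMIs were required. Epcam was detected in 97.1%, in 93.6% without thinning, in 99.7% at 4000 UMIs and in 90.6% with 2 UMIs required. Host Cd207 and Epcam were 7.39 and 4.04 UMIs per 10000 over host clusters 1 to 3, and 20.2 and 10.8 in host cluster 2 alone.

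The difference of mitochondrial medians ran from -0.0343 without BMT replicate 1 to 0.201 without BMT replicate 3, and that of median UMIs from -739.5 without BMT replicate 3 to 3075 without BMT replicate 1. The share of resident mLC differed between labels by 26.2 to 35.5 points with a BMT library left out. The label comparison called 0 genes by limma under all 11 alternatives, with 13 to 534 genes at an unadjusted p under 0.05 and a smallest adjusted p of 0.072 with the pair of libraries as a term. Leaving out BMT replicate 3 took the unadjusted count from 33 to 461 genes. The 0 calls do not show that the labels were alike. No paired analysis was possible because the BMT + T cells group holds a single library, so the groups compared share fewer than 2 replicate numbers; the pairs of libraries above rest on the form of their names.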
